A study of Mus with 4 samples.

Results

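Circular RNAs (circRNAs) of the dystrophin complex and of muscle-related genes were examined in mouse ocular tissue. The genes were Dmd, Utrn, Dtna, Sgcd and Sgce of the dystrophin complex, Fhod3 and Ttn of the contractile apparatus, and Phkb and Phka1 of phosphorylase kinase. Every circRNA of the deposited tables whose host identifier mapped to one of these 9 genes was taken, which gave 243 of 44073 circRNAs. They came from 8 of the 9 genes, among 7140 host genes in all, and Sgcd had no listed circRNA in any library. The mice were C57BL/6J pups, either wild type or with VLDLR deleted, the receptor for very-low-density lipoprotein. All groups had been kept in 75% oxygen from postnatal day 7 (P7) to P12. Tissue was taken at P12, directly after the oxygen, or at P13, after 1 day in room air, so that age and the return to room air cannot be told apart. There was 1 library in each of the 4 groups, made of total RNA depleted of ribosomal and linear RNA, and the labels give neither the number of animals in a library nor which parts of the eye were taken.

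A circRNA forms when a splice donor is joined to an acceptor that lies before it in the gene, and reads that cross this back-splice stem from the ring, not from linear RNA. Dystrophin links the actin cytoskeleton to dystroglycan, a receptor for the extracellular matrix, in a membrane complex with dystrobrevins, syntrophins and sarcoglycans. The complex stabilises the membrane of muscle fibres, and in the retina shorter dystrophin products from internal promoters sit at photoreceptor synapses, in glial end feet and at vessels. The eye therefore holds more than 1 possible source of these RNAs, namely the retina and the striated muscles that move the eye.

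The libraries held 662811 junction reads at P12 and 759063 at P13 for the wild type, and 299723 and 341873 for the deletion, and each table listed circRNAs with at least 2 reads. The member genes gave 3469, 4128, 1717 and 2069 of these reads in the same order. Reads were compared after scaling to a common library size by edgeR's TMM method, and levels are given as junction reads per 100000 scaled reads. The wild-type libraries came from 1 sequencing run and the deletion libraries from another, with 0 runs shared, so that genotype and run cannot be told apart. Vldlr itself gave 0 circRNAs, and the targeted gene was no check of the labels. With 1 library per group, p-values come from a model with genotype and day as additive terms and 1 residual degree of freedom, and they measure only the spread between these libraries. Fewer cells of a type and less RNA per cell cannot be told apart in tissue of this kind.

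As a set, the 243 circRNAs were long and mostly exonic. In 218 of them (89.7%) the deposited class was exon, and in 25 (10.3%) it was intron, beside 86.5% and 8.01% of all circRNAs. Of the 25, 18 were from Phkb. The median span of the 243 between the back-spliced positions was 31421 bases, against 10995 bases over all circRNAs. Of them, 28 (11.5%, against 3.02% of all circRNAs) spanned at least 100000 bases, and 23 of these were from Dmd. The median spans of Sgce (10306 bases) and Ttn (1411 bases) lay below that of all circRNAs, and those of the other genes with circRNAs lay above it. In all, 74 circRNAs (30.5%) were listed in every library, against 25.2% of all circRNAs. The span counts the genomic distance with introns and not the length of the ring, which the tables do not give.

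The genes fell into 3 ranges of circRNA output. Dmd and Phkb gave between 188 and 286 scaled reads in a library, Fhod3 and Utrn between 61.6 and 80.5, and Sgce, Dtna, Phka1 and Ttn at most 32.6. Neighbours within the upper ranges overlapped. Phkb reached 229.8 in deletion P12, above the lowest Dmd level of 227.5, and Utrn lay above Fhod3 in every library but deletion P13.

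**Figure D1:**
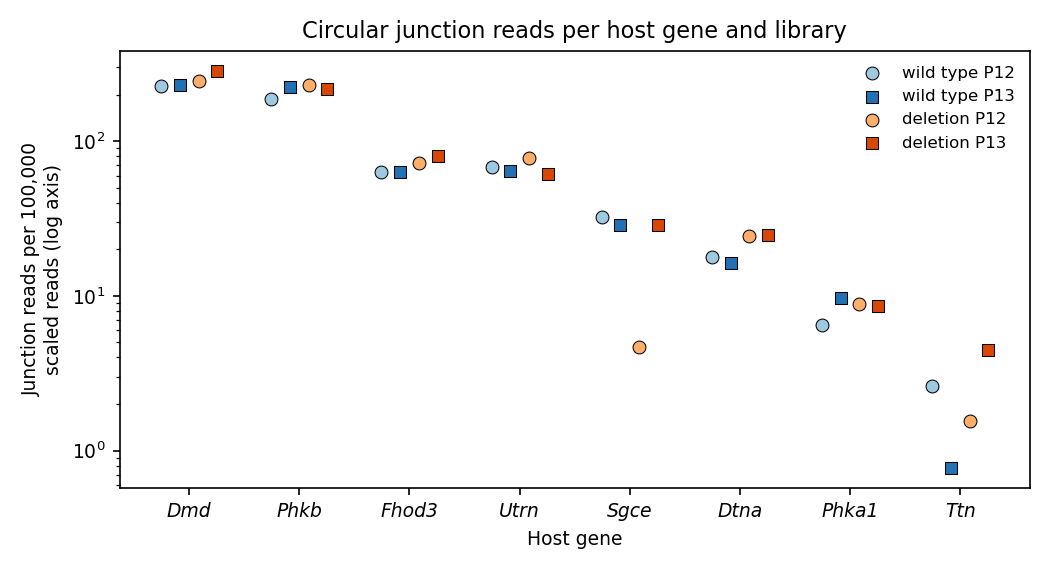
Junction reads of each host gene per 100000 scaled reads (log axis) in the 4 libraries, 1 point per library and no error bar since each group holds 1 library. Dmd lies at 227.5 and 231.7 in wild type and at 244.5 and 286.3 in the deletion, and Sgce drops to 4.64 in deletion P12.

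Dmd encodes dystrophin, the actin-binding protein at the core of the complex. It hosted 107 different circRNAs, the 2nd highest number of all 7140 host genes, where the median host gave 3. By summed reads it ranked 55th. Its circRNAs held 1300 reads at P12 and 1501 at P13 without the deletion, and 632 and 832 with it. These used 47 different start and 44 different end positions on chromosome X, between 83196895 and 85197535 of the deposited coordinates. The most abundant ring, from 83878047 to 83887233, took 15.2% of the reads of the gene.

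The rings of Dmd did not cover the gene evenly. Along the 2000641 bases between its outermost circRNA positions, 41 of the 107 rings had their midpoint in the second of 4 equal segments and 25 in the first. Several parts of the gene were covered by no ring, the longest of 249.5 kb, the next of 137.3 kb and 126.4 kb. The second segment held a similar share of reads in each library: 34.5% and 31.2% in the wild-type libraries (P12, P13) and 30.4% and 35.1% in their deletion counterparts. Exon numbers and the internal promoters of Dmd were not placed on this map, since exon annotation was not used here. The widest ring of all members was also from Dmd. It ran from 83196895 to 83381357, spanned 184463 bases, was classed as intron, and held 14, 22, 7 and 12 reads at P12 and P13 in the wild type and then in the deletion.

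**Figure D2:**
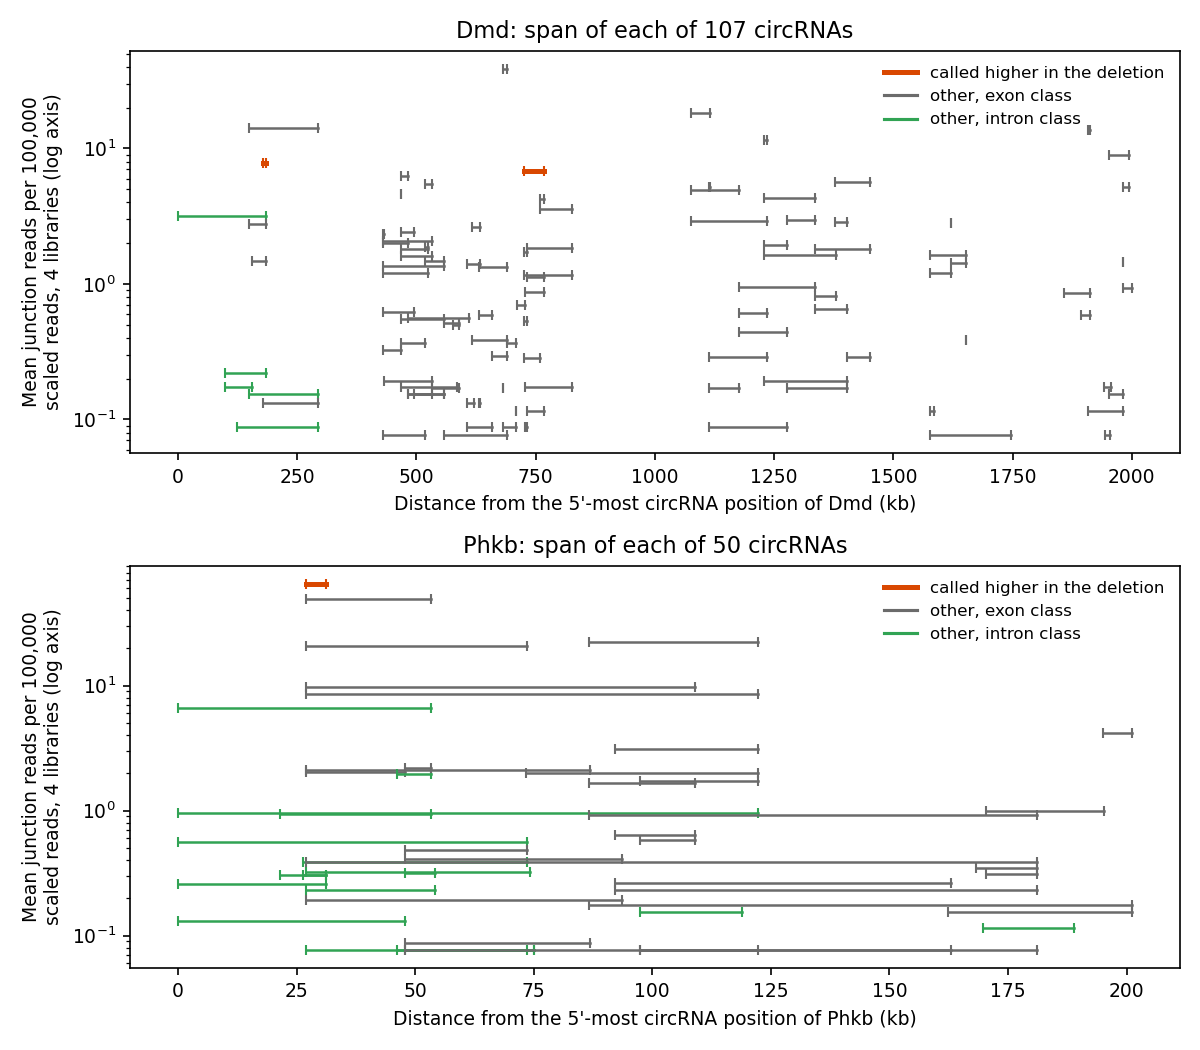
Each circRNA of Dmd (top) and Phkb (bottom) is a bar from its first to its last position, in kb from the 5'-most circRNA position of the gene, at the height of its mean scaled junction reads over the 4 libraries (log axis). Dmd rings lie in separate blocks with a gap of 249.5 kb, while the most abundant Phkb rings begin at the same position; orange bars were called higher in the deletion.

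The 3 most abundant Dmd rings did not pass the test of genotype. The ring from 83878047 to 83887233 held 215 reads at P12 and 193 at P13 without the deletion, and 101 and 139 with it. Its log2 fold change of deletion against wild type was 0.37 (SE 0.19, adjusted p = 0.294). The ring from 84271952 to 84312626 held 81, 134, 40 and 66 reads in the same order (log2 fold change 0.13, SE 0.23). For the ring from 83346262 to 83489945 the counts were 83, 100, 35 and 38 (log2 fold change -0.17, SE 0.26).

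A pair of less abundant Dmd rings rose in the deletion relative to the median circRNA. The short ring from 83375059 to 83381357 held 20 and 33 reads in the wild-type libraries (P12, P13) and 31 and 31 in their deletion counterparts. Its counts were thus level while the deletion libraries had fewer junction reads in all, and its log2 fold change was 1.39 (SE 0.38, adjusted p = 0.0261), although on the authors' SRPBM scale (junction reads divided by 1 constant per library) it was -0.06. The ring from 83922467 to 83964841 held 26, 17, 24 and 31 reads (log2 fold change 1.51, SE 0.42, adjusted p = 0.0314). Scaled, both deletion libraries lay above both wild-type libraries for each ring. The first call rested on wild type P12, without which the value was 1.02 (adjusted p = 0.2497), and the second on wild type P13, without which it was 0.99 (adjusted p = 0.293).

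Other Dmd rings lay on both sides. The ring from 84309799 to 84312626 held 16 reads at P12 and 21 at P13 without the deletion, and 16 and 25 with it, and its log2 fold change of 1.28 missed the threshold (adjusted p = 0.0842). In the opposite direction, the ring from 83954963 to 84022412 held 20, 52, 0 and 8 reads in the same order (log2 fold change -2.15, SE 0.66, adjusted p = 0.0553), which passed without a filter on low counts (-2.39, adjusted p = 0.0191). This ring reached the minimum for the main test only through its wild-type libraries, so that the filter favoured a fall. It shares its acceptor with the ring from 83954963 to 83964841, which held 24, 14, 14 and 15 reads. Summed over all its rings, Dmd had a log2 fold change of 0.27 (SE 0.11, adjusted p = 0.0793) and was not called. With 1 library left out the value was 0.22 without wild type P12, 0.23 without wild type P13, 0.38 without deletion P12 and 0.17 without deletion P13. DESeq2 did not call the gene either (0.27, adjusted p = 0.215).

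Utrn encodes utrophin, the close relative of dystrophin that can take its place at the membrane. Its 31 circRNAs, all exonic, held 391 and 414 reads in the wild-type libraries (P12, P13) and 201 and 179 in their deletion counterparts. They crowded at the 3' end of the stretch they covered on chromosome 10, where the last of 4 equal segments held 87.7% to 92.5% of the Utrn reads in each library. A single acceptor at 12455564 served 5 rings with 68.7% of the reads of the gene. The main ring, from 12436281 to 12455564, held 179, 182, 88 and 88 reads in the order above (log2 fold change 0.11, SE 0.19). The next ring, from 12439627 to 12455564, held 69, 62, 42 and 28 reads, and the ring from 12436281 to 12448092 held 41, 37, 12 and 13. No Utrn circRNA passed the test, and the log2 fold change of the summed reads was 0.13 (SE 0.15, adjusted p = 0.684).

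Dtna encodes alpha-dystrobrevin, which binds dystrophin and syntrophins inside the membrane. Its 12 circRNAs held 102 reads at P12 and 105 at P13 without the deletion, and 63 and 72 with it. Of these, 78.4% began at a single acceptor at 23583084 on chromosome 18. The main ring, to 23602674, held 62, 58, 45 and 48 reads, so that the deletion libraries gave 1.60 times the wild type at P12 (95% counting interval 1.07 to 2.39) and 1.84 times at P13 (1.23 to 2.75). Over both days the log2 fold change was 0.78 (SE 0.26) and missed the threshold (adjusted p = 0.0776). The 2 next rings were small. The one from 23583084 to 23597558 held 7, 14, 11 and 12 reads, and the one from 23535162 to 23569775 held 9, 16, 5 and 4. For the summed gene the log2 fold change was 0.59 (SE 0.26, adjusted p = 0.114).

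Sgce encodes epsilon-sarcoglycan, the sarcoglycan made in many tissues besides muscle. Its 4 circRNAs, from chromosome 6, held 186 and 185 reads in the wild-type libraries (P12, P13) and 12 and 84 in their deletion counterparts, and 98.7% of all of them used a single acceptor at 4719496. The main ring, from 4707074 to 4719496, held 131, 142, 0 and 65 reads. It was thus missing from the table of deletion P12 alone, while in deletion P13 it stood at 1.02 times wild type P13 (0.75 to 1.38). The neighbouring ring from 4689579 to 4719496, which shares the acceptor, was listed in all libraries with 44, 36, 12 and 16 reads. The ring from 4711308 to 4719496 held 8 and 7 reads in wild type and was not listed in the deletion libraries. The host value (log2 fold change -0.95, SE 0.89, adjusted p = 0.665) moved with the missing entry. Leaving out deletion P12 brought it to -0.02, while leaving out deletion P13 brought it to -2.63. Either fit keeps 1 deletion library. Sgcd, the delta-sarcoglycan gene of striated and smooth muscle, gave no ring, which at the listing minimum leaves single reads unseen.

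A missing entry of this kind was seen in a second abundant ring, from Phkb. Of 24 member circRNAs with at least 20 reads in 3 or more libraries, 2 (8.33%) were unlisted in the remaining one, against 30 of 3019 such circRNAs overall (0.994%), a difference that was not tested. Without an entry a ring may still have had 1 read, or more where the caller dropped it, and these cases cannot be told apart from the tables. Read as a true 0, the Sgce ring at P12 had a ratio of deletion to wild type of 0, with a 95% counting interval up to 0.063.

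Fhod3 encodes a formin that builds actin filaments in the sarcomeres of striated muscle. Its 27 circRNAs, all exonic and on chromosome 18, held 361 reads at P12 and 410 at P13 without the deletion, and 188 and 234 with it. The main ring, from 25020662 to 25028169, took 56.2% of them with 201, 246, 101 and 122 reads (log2 fold change 0.15, SE 0.18). The ring from 25028065 to 25060376 begins just before the end of that one. It held 16 and 25 reads in the wild-type libraries (P12, P13) and 28 and 27 in their deletion counterparts. Scaled, this was 3.87 times the wild type at P12 (2.02 to 7.65) and 2.41 times at P13 (1.34 to 4.32), and the ring rose over both days (log2 fold change 1.58, SE 0.41, adjusted p = 0.0218). Without wild type P12 it was no longer called (1.25, adjusted p = 0.153).

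The longer Fhod3 ring from the same acceptor, to 25066425, held 29, 39, 12 and 29 reads and did not pass (log2 fold change 0.36, SE 0.41). As a whole, Fhod3 had a log2 fold change of 0.34 (SE 0.15, adjusted p = 0.133).

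Phkb encodes the beta subunit of phosphorylase kinase, the enzyme that switches on glycogen breakdown. Its 50 circRNAs, 18 of them (36.0%) of the intron class, held 1077 reads at P12 and 1445 at P13 without the deletion, and 594 and 630 with it. In contrast to Dmd, most of these reads came from 1 place. A single acceptor at 85875634 on chromosome 8 began 12 rings with 73.8% of the reads of the gene (786, 1069, 443 and 465 reads in the order above). The ring with the most reads of the intron class among all members, from 85848674 to 85901957, was also from Phkb, with 28, 51, 14 and 24 reads.

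The shortest of the rings that begin at 85875634 rose. It ends at 85879810, spans 4177 bases and was the most abundant of all members, with 271 and 314 reads in the wild-type libraries (P12, P13) and 208 and 244 in their deletion counterparts. Its log2 fold change was 0.78 (SE 0.15, adjusted p = 0.0034). The rise was 1.70 times at P12 (1.41 to 2.04) and 1.73 times at P13 (1.46 to 2.05), and the call held when any 1 library was left out but not without the filter on low counts (adjusted p = 0.0545). DESeq2 called it too (adjusted p = 0.0106), but on the SRPBM scale it was called lower (-0.68, adjusted p = 0.0163), less far below zero than the median circRNA there.

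The rings of this acceptor were then compared as shares of its reads, a measure free of library scaling. The shortest ring took 34.5% (95% exact binomial interval 31.2 to 37.9) of the reads of the acceptor at P12 and 29.4% (26.7 to 32.2) at P13 without the deletion, and 47.0% (42.2 to 51.7) and 52.5% (47.8 to 57.1) with it. Both deletion libraries thus lay above both wild-type libraries with intervals that did not overlap. The second ring, to 85901957, took 31.2%, 31.3%, 28.4% and 32.7%, and its counts of 245, 335, 126 and 152 gave a log2 fold change of 0.10 (SE 0.17). A ring to 85922242 took 22.4% and 22.6% in wild type, 8.80% in deletion P12 and 0% in deletion P13.

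This last ring had 176 and 242 reads in the wild-type libraries (P12, P13) and 39 and 0 in their deletion counterparts. Its scaled level in the deletion was 0.49 times the wild type at P12 (0.34 to 0.70), and at P13, where the deletion library does not list it, the ratio was 0 (up to 0.034). The 5 rings that use its donor held 184, 262, 43 and 0 reads together. The test over both days did not call it (log2 fold change -2.40, SE 1.86, adjusted p = 0.680). Leaving out deletion P12 moved the log2 fold change of the ring to -10.42. That value rests on the missing entry of deletion P13, then the only deletion library. Leaving out deletion P13 instead gave -1.16, from the 39 reads of deletion P12. Either fit keeps 1 deletion library and so holds no spread within the deletion group. Whether the missing entry is a true 0 cannot be told from the tables. With this ring left out of the acceptor's total, the shortest ring took 44.4% (40.4 to 48.5) at P12 and 37.97% (34.6 to 41.4) at P13 without the deletion, and 51.5% (46.5 to 56.5) and 52.5% (47.8 to 57.1) with it. The deletion libraries still had the higher shares, but the interval of wild type P12 then overlapped those of both deletion libraries.

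**Figure D3:**
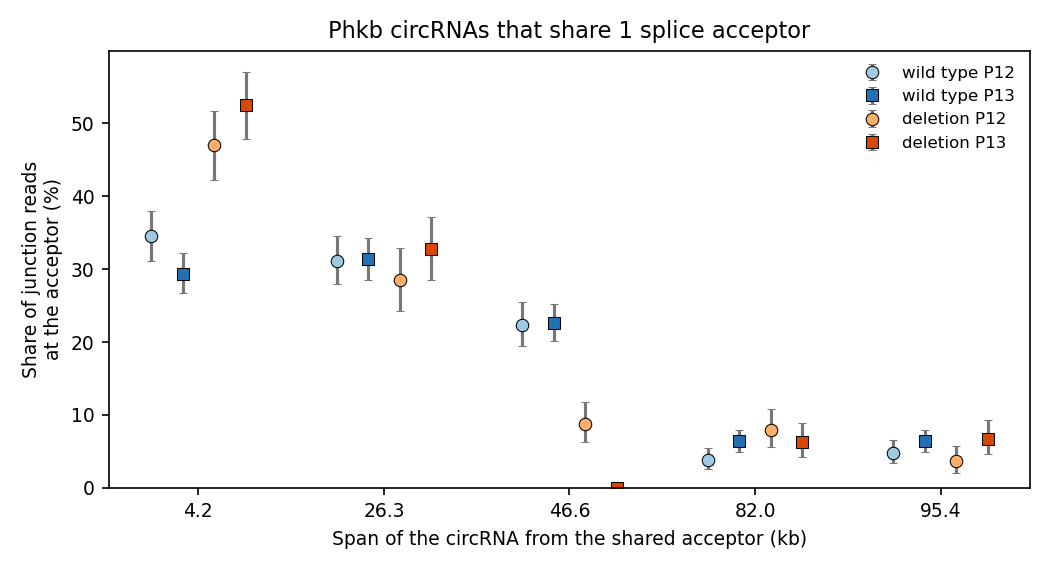
Share of the junction reads at the shared Phkb acceptor taken by its 5 most abundant circRNAs, by span in kb, with 95% exact binomial intervals that cover counting error only. The ring of 4.2 kb takes 34.5% and 29.4% in wild type against 47.0% and 52.5% in the deletion, while the ring of 46609 bases goes from 22.4% and 22.6% to 8.80% and 0%.

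Away from this acceptor, the Phkb ring from 85935408 to 85970997 held 110 and 146 reads in the wild-type libraries (P12, P13) and 57 and 72 (log2 fold change 0.16, SE 0.22) in their deletion counterparts. Summed, Phkb had a log2 fold change of 0.18 (SE 0.11, adjusted p = 0.326).

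Phka1 encodes the muscle form of the alpha subunit of the same enzyme. Its 8 circRNAs on chromosome X held 37 reads at P12 and 63 at P13 without the deletion, and 23 and 25 with it. The main ring, from 102554884 to 102559734, held 16, 33, 14 and 12 of them (log2 fold change 0.29, SE 0.49). The rings from 102532403 to 102545464 (9, 19, 4 and 7 reads) and from 102532077 to 102545464 (3, 3, 0 and 6 reads) were too thin to be tested.

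Ttn encodes titin, the giant spring protein of the sarcomere, and is rich in exons. It nevertheless gave only 4 circRNAs, with 15 and 5 reads in the wild-type libraries (P12, P13) and 4 and 13 in their deletion counterparts. None reached the minimum for a test of single circRNAs. The ring with the most reads, from 76714681 to 76715645 on chromosome 2 (8, 3, 0 and 4 reads), is listed on the + strand while the other 3 are on the - strand, so that its assignment to Ttn is uncertain. The rings from 76821116 to 76822972 (intron class; 3, 0, 4 and 5 reads) and from 76853605 to 76856366 (4, 2, 0 and 2 reads) lie on the - strand. At these counts no difference between groups was detectable in Ttn (log2 fold change 0.96, SE 1.06).

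Over all member genes, 61 circRNAs had at least 10 reads in at least 2 libraries and were tested for genotype. Of these, 4 rose and 0 fell (quasi-likelihood test of edgeR, Benjamini-Hochberg adjusted over all 8785 circRNAs tested), where 5.03% rose and 3.59% fell. At an unadjusted p under 0.05 the counts were 10 and 1, and DESeq2 called 1 and 0. None of the 4 calls held without the minimum count, when another ring passed as higher and 1 as lower. The share that rose (4 of 61) was thus near the background. The median log2 fold change was 0.15 over the members and -0.08 over all circRNAs tested, and 37 of the 61 values were above zero. A member that passed the minimum only through its deletion or wild-type libraries had to differ, so that these counts describe the tested circRNAs and not all 243.

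**Figure D4:**
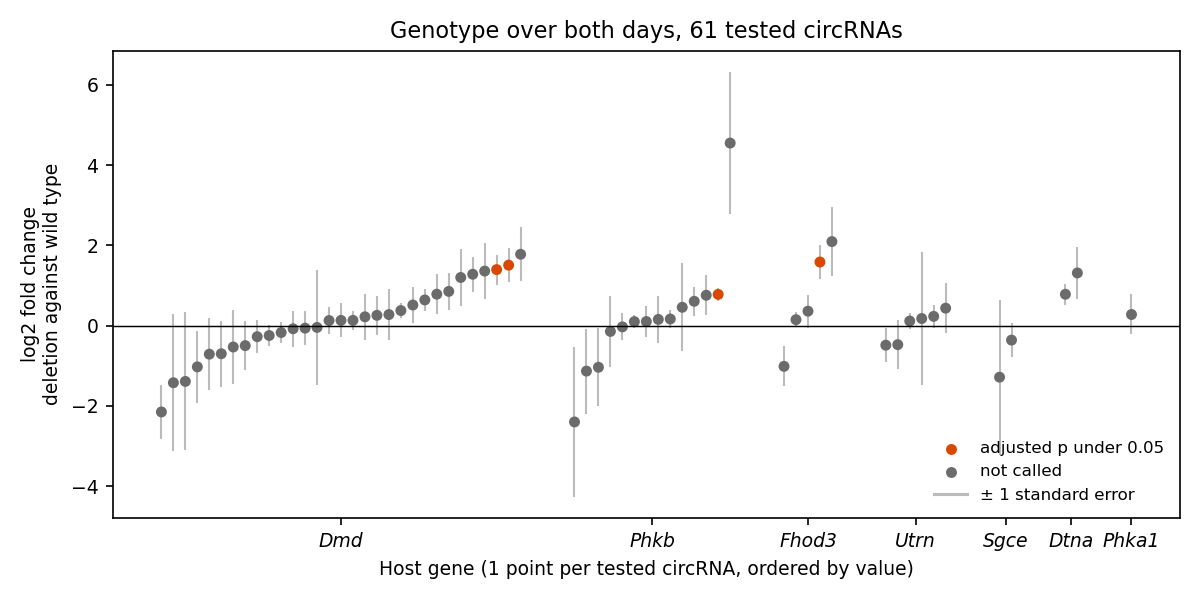
Log2 fold change of deletion against wild type over both days for the 61 tested circRNAs, ordered by value within each host gene, with bars of 1 standard error. The 4 orange points (2 of Dmd, 1 of Phkb, 1 of Fhod3) passed at an adjusted p under 0.05, and most other error bars reach or come close to zero.

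The deposited tables also carry the authors' SRPBM values, the junction reads divided by a constant of each library. On that scale the median of all tested circRNAs shifted from -0.08 to -1.54 and that of the members to -1.31, so that 26 members were called lower and 0 higher. The Fhod3 ring and the Dmd ring from 83922467 to 83964841 remained above zero there (0.13 and 0.05, neither called). Changes are otherwise given relative to the TMM scale, on which the median circRNA lay near zero.

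Summed per host gene, 0 of the 8 member genes rose and 0 fell (edgeR; 3 and 0 at an unadjusted p under 0.05; DESeq2 0 and 0), where 7.49% of all 3896 tested host genes rose and 6.6% fell. On the SRPBM scale the direction turned in Dmd, Utrn, Dtna, Fhod3, Phkb, Phka1 and Ttn, and 7 of the 8 genes were called lower.

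Single pairs of libraries were then set side by side. A circRNA with at least 20 reads over a pair was called where the scaled levels differed at least 2-fold and the 95% counting interval excluded 1. Such calls compare 2 libraries, carry no p-value and cover counting error only. At P12, 10 of 49 members were higher in the deletion and 5 lower, beside 10.9% and 10.6% of all circRNAs. At P13 there were 7 higher and 2 lower of 55, beside 10.3% and 9.58%. The rings called higher on both days were the Dmd rings from 83375059, 83922467 and 84309799 and the Fhod3 ring from 25028065 to 25060376. The rings called lower on both days were the Dmd ring from 83954963 to 84022412 and the Phkb ring to 85922242, each with a deletion library at 0. Every circRNA compared but listed in only 1 library of its pair was called (183 at P12 and 166 at P13). For each of these 2 rings, 1 call therefore followed from the missing entry. With at least 50 reads required, 3 were higher and 3 lower at P12.

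No member circRNA passed the test of P13 against P12 (0 of 61 by edgeR and 0 by DESeq2, 3 higher and 0 lower at an unadjusted p under 0.05), where 0.0228% of all circRNAs passed. Among the summed genes 0 of 8 passed (0 at an unadjusted p under 0.05, DESeq2 0), against 0.103% of all host genes, with log2 fold changes from -0.22 in Utrn to 0.71 in Sgce. In the wild-type pair 1 of 67 members was higher at P13 and 2 were lower, beside 4.48% and 4.62% overall. In the deletion pair 3 of 41 were higher and 1 lower, beside 4.0% and 4.19%, and no ring was called the same way in both pairs. A p that misses the threshold does not show that the days were alike.

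The junction ratio compares each ring with the non-junction reads over the same 2 splice sites. It is 2 times the junction reads over that number plus the non-junction reads, and a low ratio means that reads without a back-splice prevail there even after the depletion of linear RNA. The ratio itself does not enter the tests above and needs no library scaling, but it uses the same junction reads. How far linear RNA was depleted in each library was not measured here, and genotype and run cannot be told apart in the ratio either. It was compared over the circRNAs with at least 10 junction reads in every library, 32 members and 4052 in all.

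The median ratio of the members was low, but Dmd gave 16 of the 32 rings and most of the low values. The median ratio over members was 0.322 at P12 and 0.364 at P13 without the deletion, and 0.294 and 0.329 with it, against 0.510, 0.524, 0.520 and 0.528 over all circRNAs. Of the 16 Dmd rings, 10 were below 0.25 in every library, compared with 480 of all 4052 (11.8%). None of the 7 Phkb rings was, and the only other member below 0.25 in every library was 1 Utrn ring. Above 0.5 in every library were 8 of the 32 members, 1 of them from Dmd, beside 1649 of all 4052. The single rings of Dtna and Sgce were among these 8. The main rings of Utrn (0.775, 0.825, 0.775 and 0.769) and Fhod3 (0.795, 0.826, 0.777 and 0.850) stood high in every library.

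Within Dmd the ratios were mostly lower in the deletion. They were below the wild type in 12 of 16 rings at P12 and in 12 of 16 at P13, while over all circRNAs 1914 of 4052 were lower at P12 and 1986 at P13. The main ring, from 83878047 to 83887233, had a ratio of 0.827 (0.788 to 0.861) and 0.777 (0.733 to 0.816) in the wild-type libraries (P12, P13) and 0.610 (0.544 to 0.672) and 0.551 (0.496 to 0.603) in their deletion counterparts. Its non-junction reads numbered 90, 111, 129 and 227 in that order. As unscaled counts they were higher in both deletion libraries, while the junction reads of the ring were fewer there, as were junction reads in all. After scaling, the junction reads of the ring were not lower in the deletion (edgeR, log2 fold change 0.37, adjusted p = 0.294). Non-junction reads were not scaled. The ratio of the ring from 83346262 to 83489945 was also lower in the deletion (0.406, 0.398, 0.248 and 0.204). So was that of the ring from 85105144 to 85110100, with 0.473, 0.574, 0.292 and 0.342.

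In Phkb the direction was the opposite: 6 of 7 rings had a higher ratio in the deletion at P12 and 5 of 7 at P13. Over all circRNAs 2134 of 4052 were higher at P12 and 2065 at P13. The ring from 85935408 to 85970997 had ratios of 0.546, 0.576, 0.630 and 0.742, and the second ring of the shared acceptor 0.744, 0.736, 0.785 and 0.840. The 16 Dmd rings come from 1 gene and partly share splice positions, and so do the 7 Phkb rings. The rings of either gene are therefore not independent measurements, and with 1 library per group the differences were not tested.

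**Figure D5:**
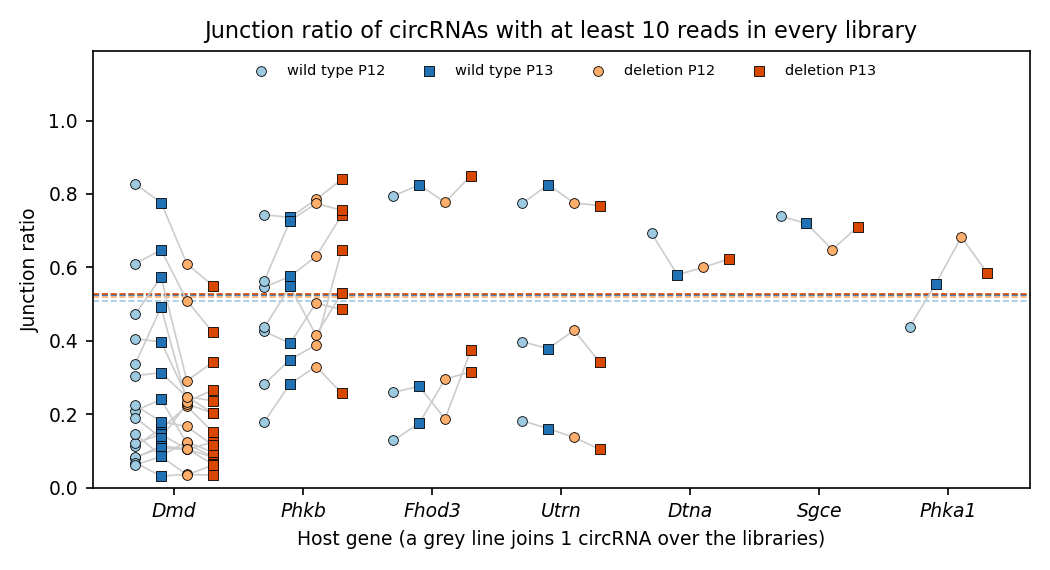
Junction ratio (0 to 1) of the 32 member circRNAs with at least 10 junction reads in every library, by host gene and library; a grey line joins 1 circRNA, and dashed lines give the median over all 4052 such circRNAs in each library (0.510 to 0.528). Most Dmd points lie far below these medians, and the highest Dmd ring falls from 0.827 in wild type P12 to 0.551 in deletion P13.

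Other genes of the pathways were taken from lists chosen for the same complexes. Of 26 further genes of the dystrophin complex and of dystroglycan, 17 had a circRNA and 10 could be tested as host genes. Of these, 2 rose and 1 fell, beside 7.49% and 6.6% of all host genes, with a median log2 fold change of 0.11 against -0.05 over all host genes. The syntrophin genes Sntg1 and Sntg2, adaptors of the complex, were the 2 that rose. Sntg1 held 117, 121, 81 and 109 reads at P12 and P13 in the wild type and then in the deletion (log2 fold change 0.87, SE 0.23, adjusted p = 0.0025). DESeq2 did not call it (adjusted p = 0.0999), and edgeR on the SRPBM scale called it lower (-0.65, adjusted p = 0.0213).

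Sntg2 differed between the wild-type libraries, with 8, 38, 38 and 29 reads (log2 fold change 1.91, SE 0.45, adjusted p = 4.295e-04), and was not called without wild type P12 (1.09, adjusted p = 0.155) or without deletion P12 (1.49, adjusted p = 0.0635). The Sntg1 call was lost without wild type P12 (adjusted p = 0.0628) and without wild type P13 (0.135). Rxylt1, a glycosyltransferase gene of dystroglycan, fell, with 64, 43, 6 and 7 reads (-1.80, SE 0.52, adjusted p = 0.0070). It reached the minimum for a test only through its wild-type libraries, so that the filter favoured a fall.

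The most circRNA reads of this list came from Dtnb, the beta-dystrobrevin gene, whose 43 circRNAs held 3124, 4329, 1521 and 1662 reads, more than all members of the complex together, and whose log2 fold change was close to zero (SE 0.10). Egflam, a dystroglycan ligand of the photoreceptor synapse, held 195, 182, 87 and 104 reads. Sntb2, a syntrophin gene, held 171, 176, 97 and 114. Neither was called. The sarcoglycan genes Sgca and Sgcb and the sarcospan gene Sspn gave no circRNA.

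Of 9 further phosphorylase kinase and glycogen genes, 5 had a circRNA, 3 were tested and 0 were called (edgeR; 0 at an unadjusted p under 0.05). Gbe1, the glycogen branching enzyme, led with 840, 951, 393 and 488 reads, before Phka2, the other alpha subunit, with 19, 43, 18 and 16, and Pygm, the muscle glycogen phosphorylase, with 13, 17, 4 and 8. Of 31 further sarcomere and formin genes, 10 had a circRNA, 3 were tested and 0 were called (0 at an unadjusted p under 0.05). Pdlim5 held 112, 172, 75 and 68 reads, Nebl 57, 65, 33 and 39, and the formin gene Daam1 18, 32, 12 and 20, none of them restricted to skeletal muscle.

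Marker genes of the tissues that could supply these RNAs were read from the same tables. Of 32 markers of striated muscle, 12 had a circRNA, with 83 reads at P12 and 150 at P13 without the deletion, and 23 and 46 with it, or 14.5, 23.2, 8.90 and 15.8 per 100000 scaled reads. Most of these came from Ryr1, the calcium release channel of skeletal muscle (42, 97, 18 and 37 reads), and 20 markers, among them the troponin genes, Acta1 and the extraocular myosin gene Myh13, had none. Smooth muscle and pericyte markers had none in 10 genes. Photoreceptor markers had circRNAs in 18 of 27 genes, with 3868, 5214, 2562 and 2869 reads, or 677, 805, 991 and 987 per 100000. Of the 16 photoreceptor markers tested, 4 rose in the deletion and 0 fell, beside 7.49% and 6.6% of all host genes. On the SRPBM scale none of the 4 was called higher and 2 were called lower.

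Levels of the members and of the muscle markers were then set side by side. Scaled reads of the members summed to 607 and 637 in the wild-type libraries (P12, P13) and 664 and 712 in their deletion counterparts, while the muscle markers were highest in wild type P13 and lowest in deletion P12. Both sums were higher at P13 than at P12 in each genotype, and in the deletion the members' sum was higher and the muscle markers' sum lower than in the wild type of the same day. Ryr1, which led the muscle sum, was not called (edgeR, log2 fold change -0.11, adjusted p = 0.903). Muscle markers were listed from 8 and 9 genes in wild type and from 3 and 4 in the deletion libraries, which had fewer reads. Rings below the listing minimum add nothing to such a sum, and their part was not tested. Müller glia markers were near the listing minimum, with 22, 10, 8 and 9 reads in 5 of 10 genes. Lens markers held 71.2 and 86.6 scaled reads without the deletion and 264 and 204 with it. This sum was led by Bfsp1, a lens filament gene (320, 344, 658 and 564 reads), which rose, while the crystallin gene Cryga fell (45, 158, 4 and 8 reads), and the third lens marker tested was not called. Cryga reached the minimum for a test only through its wild-type libraries, so that the filter favoured a fall. The part of muscle or lens RNA in the member results was not tested, and the tables do not assign a ring to a cell type.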

How the data were processed

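The data were back-spliced junction reads of circRNAs in 4 libraries of mouse ocular tissue, 1 per genotype and postnatal day, grouped by the sample titles. The deposited tables give a count of junction reads and of non-junction reads per circRNA with columns named as CIRI writes them, per the file headers. The junction ratio is a fraction which the authors computed from both counts, and the deposited SRPBM values are a signal, the junction reads divided by 1 constant per library. The submitters' processing notes name BWA and DESeq2 without version or role. Build and annotation: not given in the sources used here. Coordinates are therefore printed as deposited.

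Gene symbols came from RefSeq (GRCm38.p6), in which 7241 of 7252 host identifiers were found. For 65 of 44073 circRNAs class or host differed between tables, and exon took precedence. Counts were tested as deposited with edgeR 4.0.16 in R 4.3.3 (TMM; quasi-likelihood test, glmQLFit with robust, genotype and day as additive terms) over all circRNAs, and over all host genes from summed reads, wherever 2 or more libraries had 10 or more reads. Benjamini-Hochberg adjustment covered all features tested, with a threshold of 0.05. Standard errors were taken from the fold change and its F statistic. DESeq2 1.42.0 was an alternative. Pair ratios and shares carry exact Clopper-Pearson 95% intervals (scipy 1.17.1), which cover counting error only, since reads carry no molecular identifiers. The edgeR test was also run on simulated counts, where it missed many of the changes put in. A difference that did not pass may therefore still be present. Leaving out a library used the tested term alone, the lone library of a group being taken to vary like the others. Host positions, exons and sequences were not analysed here.

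The members and gene lists were chosen with earlier results of these data known. Named circRNAs are the 3 most abundant of each host, each member past the test, each called the same way in both pairs of a contrast, and the widest and most read of a class. Further rings named beside these were chosen after their values were seen. Of the pathway lists, genes past the test and the 3 with most reads are named. Some genes of these lists are not reported here and were left out of the list counts.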

Additional observations from a re-analysis of the deposited data

Results flagged for a closer look

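A closer look is warranted by 3 circRNAs whose ratios lay on opposite sides of 1 in the 2 pairs of a contrast, with 95% counting intervals that did not overlap. With 1 library per group none of these differences was tested. The Phkb ring from 85875634 to 85957654 (30 and 68 reads at P12 and P13 without the deletion, 35 and 29 with it) stood in the deletion at 2.58 times the wild type at P12 (1.54 to 4.35) and at 0.95 times at P13 (0.59 to 1.49). From P12 to P13 it went to 2.0 times in wild type (1.28 to 3.18) and to 0.74 times in the deletion (0.43 to 1.24). The Sgce ring from 4707074 to 4719496 had a ratio of deletion to wild type of 0 at P12 (0 to 0.063) and of 1.02 at P13 (0.75 to 1.38). Between the days its ratio was 0.96 in wild type (0.75 to 1.22), and in the deletion, where the P12 library lists none, the counting interval began at 15.2. The Phkb ring from 85875634 to 85922242 had a ratio of P13 to P12 of 1.21 in wild type (0.99 to 1.48) and of 0 in the deletion (0 to 0.088). The latter ring and the Sgce ring are each unlisted in 1 library only.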

How the results depend on the processing

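The SRPBM scale changed the most. On it 0 member circRNAs were called higher and 26 lower for genotype, 7 host genes were called lower, and the pairs gave 0 higher and 26 lower at P12, 0 higher and 37 lower at P13, and 4 higher and 0 lower between the days in wild type. The log2 fold change of the summed reads turned to -1.26 in Dmd, -1.39 in Utrn, -0.93 in Dtna, -1.19 in Fhod3, -1.34 in Phkb, -1.34 in Phka1, -0.54 in Ttn and -0.65 in Sntg1. That of single rings turned to -0.064 for Dmd 83375059 to 83381357, -1.09 for Dmd 83878047 to 83887233, -0.18 for Dmd 84309799 to 84312626, -0.68 for the main Dtna ring, -1.31 for the main Fhod3 ring, -1.17 for the main Phka1 ring, -0.68 for the main Phkb ring and -1.35 for the main Utrn ring.

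DESeq2 called 1 circRNA higher, the main Phkb ring. Without a filter on low counts 1 was called higher and 1 lower, all 4 original calls were lost, and the main rings of Fhod3 and Utrn turned to -0.069 and -0.10. With at least 20 reads required in 2 libraries 1 circRNA was called lower and 1 host gene, Dmd, higher. With junction reads of 1 circRNA that lie close together on the flow cell counted once, a setting chosen after seeing the data, 2 circRNAs were higher (the Dmd calls were lost), and the host genes Dmd (1 higher) and Sgce (1 lower) passed. With only circRNAs listed in every library, also chosen after seeing the data, 8 circRNAs and 3 host genes (Dmd, Dtna and Phkb) were higher. With at least 50 reads per pair there were 3 higher and 3 lower at P12, 2 higher at P13, 0 lower between the days in wild type, and 1 higher and 0 lower in the deletion. With only circRNAs listed in both libraries, chosen after seeing the data, 3 were lower at P12, 1 at P13 and 0 between the days in the deletion.

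Leaving out each library in turn gave between 2 and 6 circRNAs higher (2 without wild type P12) and between 0 and 6 lower (3 without deletion P12, 6 without deletion P13) for genotype, and between 0 and 1 for the day (1 without wild type P12). For host genes it gave between 0 and 1 higher (Dmd, without deletion P12), between 0 and 1 lower (Sgce, without deletion P13), and between 0 and 1 for the day (1 without wild type P12). The log2 fold change ran from -0.043 to 0.31 for the summed reads of Utrn, from -0.13 to 0.44 for those of Phka1, from -0.032 to 0.21 for the main Fhod3 ring, from -0.23 to 0.62 for the main Phka1 ring, from -9.79 to 0.0085 for the Sgce ring from 4707074 to 4719496, and from -0.10 to 0.21 for the main Utrn ring. The cause of these changes was not tested. Of 250 log2 fold changes under the alternatives, 184 kept their direction and their side of the threshold, 24 turned, 21 lost the threshold and 21 gained it. Of 98 counts, 63 stayed within 1.5 times the original and 35 did not. No paired analysis was possible because each group holds 1 library, so that the groups share fewer than 2 replicate numbers. Depth limits the thin genes: Ttn and all but 1 ring of Phka1 were too low for a test of single rings.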

Other observations

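A Phkb ring outside the rules for naming had the highest fitted fold change of the members and was chosen after its values were seen. It runs from 85896430 to 85901957 and held 0 and 2 reads in the wild-type libraries (P12, P13) and 12 and 11 in their deletion counterparts. It reached the minimum for a test only through its deletion libraries, so that the filter favoured a rise. Its log2 fold change of 4.55 also depends on the unlisted library and did not pass (adjusted p = 0.136). Without a filter on low counts it was the 1 member called higher. Markers of other retinal neurons held 426, 472, 280 and 224 reads in the same order, and those of pigment epithelium and melanocytes 153, 185, 77 and 97. Those of endothelium held 54, 84, 23 and 29, and those of fibroblasts 25, 8, 9 and 3. In the list for cornea and conjunctiva all reads (205, 205, 82 and 115) came from Pax6. The other 6 of its 7 genes, among them the keratin genes, gave no circRNA.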
